A study of Mus musculus with 12 samples.

Results

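D2-13B6 is a mouse embryonic stem cell line in which a segment of chromosome 13 from the C57BL/6J (B6) strain sits on the DBA/2J (D2) genome. It was compared with the D2 line, so that the transferred segment is the labelled difference between the groups. The members are the libraries with these labels, 3 D2-13B6 and 3 D2 libraries of 12 in the series, and 17148 genes of 43346 gene IDs in the deposited table passed the filter on low counts. The question is which genes differ when the B6 segment replaces the D2 segment on a D2 background. The other groups are the B6 line and B6-13D2, the reciprocal line with the D2 segment on the B6 background, with 3 libraries each.

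All groups were grown in the same medium, per the labels' protocols, with 15% serum, leukaemia inhibitory factor (LIF), 1 uM PD0325901, which inhibits the kinase MEK, and 3 uM CHIR99021, which inhibits the kinase GSK3. D2 is the unmodified inbred strain, and the labels name D2-13B6 as the congenic strain XE, with no transgene or drug beyond the medium. D2 and D2-13B6 are each 1 cell line by that protocol, so strain and line cannot be told apart. For B6 the titles and the cell line field give replicate 3 another line than replicates 1 and 2, although the protocol describes a single line. The protocol describes independent cultures and the titles technical replicates, so p-values measure only the spread between these samples. The labels conflict on the name of the D2 line and on the marker that ends the B6 segment in D2-13B6, whose bounds were not placed in Mb here, and the molecule field names genomic DNA although the protocol extracts RNA. In the deposited table the names of congenic libraries start with a digit and those of parental libraries do not. If that digit marks a batch, batch and group cannot be told apart here.

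Congenic lines are bred to set an effect of a chromosome segment apart from effects of the rest of the genome. Genes inside the segment can change through their own alleles (in cis) and genes elsewhere through products of the segment (in trans), while any other difference between the lines can change genes anywhere. The middle of mouse chromosome 13 holds a large cluster of KRAB zinc finger genes, whose proteins bind DNA and recruit silencing complexes to transposable elements and some genes. Embryonic stem cells held with LIF and these kinase inhibitors keep naive pluripotency genes on, and a small fraction of such cells passes through a 2-cell-like state marked by Zscan4.

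Library totals were 24307330, 36411799 and 22184196 expected counts in D2 and 35251889, 34844837 and 28430281 in D2-13B6. The spread within groups was wider in D2, where a chi-square over genes between pairs of libraries, divided by its degrees of freedom, reached 2.85 to 8.6 against 1.95 to 2.62 in D2-13B6. The 8 markers of embryonic stem cells summed to 3201 to 3286 CPM (counts scaled to a common library total) in D2 and to 3900 to 3948 in D2-13B6, and none was at 0. Markers of fibroblasts were also abundant: the 16 genes of that list summed to 24323, 23333 and 20829 CPM in D2 and to 11712, 11609 and 11342 in D2-13B6, a ratio of 1.98, and none was at 0. The sources used here mention no fibroblasts or feeder cells in these cultures. In bulk RNA, fewer cells of a type and less RNA per cell cannot be told apart. The defining markers of neuroectoderm, mesoderm, trophoblast and primitive endoderm, 4 to 6 genes each, summed to at most 15.4 CPM in these 6 libraries. The wider lists summed to more: the 20 primitive endoderm genes, which include matrix genes such as Sparc and Col4a1, to 3429 to 3763 CPM in D2 and 2232 to 2275 in D2-13B6 (ratio 1.61), neuroectoderm to 235 to 237 and 171 to 172, trophoblast to 208 to 223 and 264 to 266, and mesoderm to 25.3 to 26.4 and 28.3 to 30.9.

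Promoter sequences are shown for a pair of gene groups in which many members moved together, the 2-cell-like genes, most of which were lower in D2-13B6, and germline genes, of which several were higher. They are RefSeq sequences of build GRCm38.p6, 250 bases before to 50 after a transcription start, written in the direction of transcription. Of 24 genes listed for the 2-cell-like state, 14 were matched in the promoter table. Zscan4c chr7:11005495-11005794 (plus strand) and Zscan4f chr7:11397665-11397964 (plus strand) are members of the Zscan4 cluster, and capitals mark TATAAA, searched on both strands.

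Zscan4c: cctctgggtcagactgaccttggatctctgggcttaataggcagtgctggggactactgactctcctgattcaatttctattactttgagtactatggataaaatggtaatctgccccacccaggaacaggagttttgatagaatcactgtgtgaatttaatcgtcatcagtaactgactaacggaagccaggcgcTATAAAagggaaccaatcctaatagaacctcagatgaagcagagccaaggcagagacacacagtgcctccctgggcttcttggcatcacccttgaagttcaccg

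Zscan4f: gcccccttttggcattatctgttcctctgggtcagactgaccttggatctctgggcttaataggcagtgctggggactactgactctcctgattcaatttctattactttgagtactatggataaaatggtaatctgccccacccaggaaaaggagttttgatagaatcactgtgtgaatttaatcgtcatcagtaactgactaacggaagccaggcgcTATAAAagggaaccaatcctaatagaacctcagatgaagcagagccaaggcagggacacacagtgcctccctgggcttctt

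The promoters of Zscan4b, Zscan4c, Zscan4d and Zscan4f share an unbroken identical run of 55 bases that includes this match. TATAAA occurred in at least 1 promoter of 6 of the 14 matched genes, 4 of them these Zscan4 copies, and of 15.7% of all 27025 genes in the table (13.6% of its 32851 promoters). Reads of these near-identical genes were divided among them by the authors' method, so the level of any one Zscan4 gene is uncertain.

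Of 20 germline genes listed, 18 were matched. Brdt chr5:107330944-107331243 (plus strand), Hormad1 chr3:95559427-95559726 (plus strand) and Sycp1 chr3:102936051-102936350 (minus strand) encode a testis bromodomain protein and a pair of proteins of the meiotic chromosome axis and synaptonemal complex. Capitals mark CACGTG, the E-box, searched on both strands (it reads the same on each).

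Brdt: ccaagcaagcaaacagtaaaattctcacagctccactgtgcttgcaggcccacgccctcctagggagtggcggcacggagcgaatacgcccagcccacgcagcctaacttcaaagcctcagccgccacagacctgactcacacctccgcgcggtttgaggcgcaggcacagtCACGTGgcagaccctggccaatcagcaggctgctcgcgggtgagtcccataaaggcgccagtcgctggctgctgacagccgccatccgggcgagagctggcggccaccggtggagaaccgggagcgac

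Hormad1: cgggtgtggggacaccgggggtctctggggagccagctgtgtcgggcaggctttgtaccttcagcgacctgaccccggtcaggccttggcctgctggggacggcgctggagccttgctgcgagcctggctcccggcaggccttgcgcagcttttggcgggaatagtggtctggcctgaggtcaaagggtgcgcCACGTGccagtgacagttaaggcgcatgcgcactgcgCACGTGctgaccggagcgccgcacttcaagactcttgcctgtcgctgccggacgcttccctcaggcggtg

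Sycp1: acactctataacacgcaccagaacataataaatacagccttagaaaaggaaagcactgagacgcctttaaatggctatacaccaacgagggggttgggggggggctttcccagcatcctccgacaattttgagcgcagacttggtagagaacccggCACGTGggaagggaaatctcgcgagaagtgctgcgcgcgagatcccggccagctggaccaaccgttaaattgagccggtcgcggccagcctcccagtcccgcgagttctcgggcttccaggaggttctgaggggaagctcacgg

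CACGTG was found in at least 1 promoter of 11 of the 18 matched germline genes and of 8.09% of all genes in the table (7.15% of promoters). It was present in 6 of the 10 matched genes that were higher in D2-13B6, in all 3 matched genes that were lower, and in 2 of the other 5, so these letters did not separate the genes that rose from those that fell. The promoter of Dazl, which rose most among the members named by the rule in this list, did not hold it in this window.

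A gene is said to be called where edgeR's quasi-likelihood test gave a Benjamini-Hochberg adjusted p under 0.05. In D2-13B6 against D2 this held for 9821 of 17148 genes (57.3%): D2-13B6 was higher for 4729 (27.6%) and lower for 5092 (29.7%). Which direction held the majority depended on scaling and filter, with 52.9% of calls higher when scaling left out chromosomes 11, 13, X and Y, against 48.2%. Most of these differences were small: the median absolute log2 fold change was 0.307 over all genes and 0.458 over those called. A log2 fold change of at least 1 was reached by 1537 called genes (8.96%), 715 of them higher (4.17%) and 822 lower (4.79%). These shares are the background for each list below, and a share near them is not a result about that list.

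The highest gene by the naming rule was Obox6 (ENSMUSG00000041583, GRCm38 chromosome 7, 15833241 to 15839678), an oocyte-specific homeobox gene outside chromosome 13. It had 0.791, 1.39 and 1.18 CPM in the D2 libraries and 40.0, 41.1 and 39.7 in the D2-13B6 libraries. Every D2-13B6 library was far above every D2 library, 34.7-fold by the means of the fit (edgeR log2 fold change 5.12 with SE 0.14, adjusted p 1.93e-14). On the other background, which shares no library with this comparison, Obox6 had 18.6, 19.9 and 20.7 CPM in B6 and 0.831, 0.201 and 0.377 in B6-13D2. There the line with the B6 segment was again the high one, by 5.38 on the log2 scale (edgeR SE 0.182, adjusted p 3.69e-14), and the difference between backgrounds was -0.26 (SE 0.337, adjusted p 0.512). Crxos, another homeobox gene of chromosome 7, had 9.25, 8.18 and 11.7 CPM in D2 and 41.5, 41.3 and 45.0 in D2-13B6 (edgeR log2 fold change 2.16 with SE 0.088, adjusted p 1.26e-12). It was also higher in B6 than in B6-13D2, by 2.25, though its reads were divided among loci. These were the 2 of 8 listed Obox genes that passed the filter.

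Serpina3m (chromosome 12), a serine protease inhibitor, had 0.875, 0.667 and 0.637 CPM in D2 and 14.0, 13.8 and 15.5 in D2-13B6 (edgeR log2 fold change 4.31 with SE 0.135, adjusted p 7.84e-14). Of 11 listed Serpina3 genes, 5 were tested, and Serpina3m was the member that rose, while Serpina3g fell by 1.42 at under 1 CPM. A2m (chromosome 6, 121635376 to 121679227), the protease inhibitor alpha-2-macroglobulin, rose from 10.5, 12.3 and 13.6 CPM to 101.0, 93.5 and 98.9, an 8.09-fold difference (edgeR log2 fold change 3.02 with SE 0.066, adjusted p 3.59e-15). The B6 segment went with the higher level on the B6 background too, where A2m had 55.7, 55.9 and 55.5 CPM in B6 against 23.9, 25.6 and 22.6 in B6-13D2.

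Other genes of this rule that were higher in D2-13B6 were Usp26 (X chromosome; log2 fold change 2.76), a testis deubiquitinase, Ace (chromosome 11; 2.72), the angiotensin-converting enzyme, Smc1b (chromosome 15; 2.65), the meiosis-specific cohesin subunit, Nlrp4f (chromosome 13; 2.59), a gene of the oocyte-expressed Nlrp4 group, Liph (chromosome 16; 2.34), a phospholipase, Zscan5b (chromosome 7; 2.22), a zinc finger gene, and Mypn (chromosome 10; 2.18), myopalladin of the sarcomere. Smc1b stood at 1.67, 1.78 and 2.19 CPM in D2 and at 11.7, 10.8 and 12.6 in D2-13B6, with no overlap (SE 0.165, edgeR adjusted p 2.61e-10). Ace, Liph and Zscan5b went the opposite way on the B6 background, with log2 fold changes of -1.15, -1.41 and -0.69 in B6 against B6-13D2.

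Stab2 (chromosome 10), a scavenger receptor for hyaluronan, was the lowest gene by the naming rule, which leaves out genes of low level or with divided reads. It had 7.71, 8.04 and 7.92 CPM in D2 and 0.658, 0.719 and 0.987 in D2-13B6, 10.1-fold lower (edgeR log2 fold change -3.33 with SE 0.192, adjusted p 9.4e-11). In B6 and B6-13D2 all libraries were below 1 CPM, so D2 was the line that stood apart from the other 3. Aass (chromosome 6, 23072173 to 23132986), the enzyme that starts lysine breakdown, fell from 23, 26.6 and 28.3 CPM to 3.1, 2.99 and 2.65 (edgeR log2 fold change -3.15 with SE 0.097, adjusted p 6.14e-14). Its level was also lower in B6, at 0.747, 0.588 and 0.943 CPM, than in B6-13D2, at 14.6, 15.9 and 14.8, so Aass was low with the B6 segment on both backgrounds. H2-Eb1 (chromosome 17), an MHC class II beta chain, had the same order, with 32.0, 30.3 and 29.7 CPM in D2 against 8.94, 7.89 and 8.68 in D2-13B6, and 3.07, 3.19 and 2.44 in B6 against 23.5, 24 and 24.1 in B6-13D2. Its log2 fold changes were -1.85 (SE 0.067) and -3.04 (SE 0.087). Cd59a (chromosome 2), a complement inhibitor, likewise fell on both, by 1.96 and by 1.59.

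The remaining genes of the rule that fell were Nr4a3 (-2.45), an orphan nuclear receptor, B020031M17Rik (-2.28) on chromosome 13, Tmem92 (-1.99) on chromosome 11, C1qtnf3 (-1.93), a secreted C1q-related protein, Sox9 (-1.86), a transcription factor of cartilage and progenitor cells, and Itga11 (-1.84), a collagen-binding integrin subunit. Nr4a3, C1qtnf3, Sox9 and Itga11 were higher in B6 than in B6-13D2, by 2.51, 1.85, 2.02 and 1.5. For these 4 genes the B6 segment therefore went with the lower level on the D2 background and the higher level on the B6 background. The order of their levels over the lines was that of the fibroblast marker sum, highest in D2, then B6, D2-13B6 and B6-13D2. Its part in these differences was not tested.

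**Figure D1:**
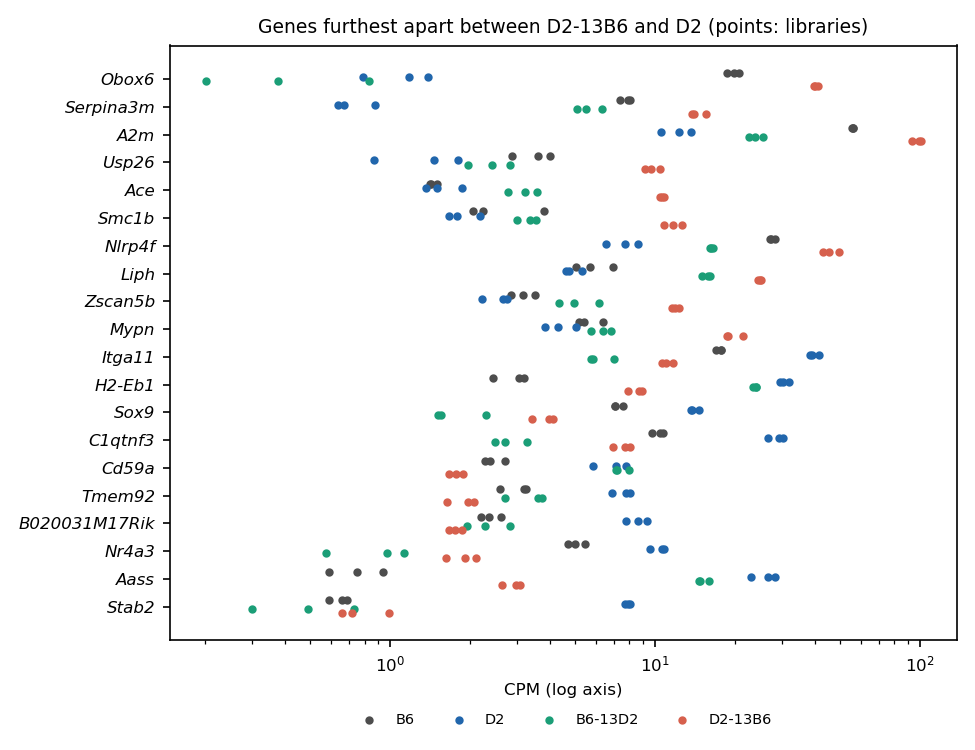
CPM on a log axis (x) of the 20 genes with the highest and lowest log2 fold changes by the naming rule (y), with a point for each of the 12 libraries, coloured by group. Obox6 is near 40 CPM in D2-13B6 and near 1 in D2, and Stab2 is near 8 CPM in D2 and near 1 or below elsewhere.

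Genes of fibroblasts and of the matrix and contractile apparatus they make were lower in D2-13B6. Of the 16 fibroblast markers, 0 were higher and 15 lower, with a median log2 fold change of -0.93 against 0.0 over all genes tested. Col1a1, the main chain of type I collagen, had 11311, 10657 and 9485 CPM in D2 and 5308, 5257 and 5116 in D2-13B6. Acta2, the smooth muscle alpha-actin of activated fibroblasts, had 1738, 1709 and 1579 CPM against 811, 818 and 818 (edgeR log2 fold change -1.04 with SE 0.037, adjusted p 2.93e-13). The groups were separate in each case, and Dcn was the member that was not called (log2 fold change 0.07). On the B6 background all 16 were higher in B6 than in B6-13D2 (66.8% of all genes that fell were), with a median of 1.53. The sign of this list was thus opposite on the 2 backgrounds. Summed levels were 14140 to 15092 CPM in B6 and 4658 to 4781 in B6-13D2.

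Smooth muscle type contractile genes followed the same order, with 0 of 18 higher and 17 lower (median -0.93). All 18 were higher in B6 than in B6-13D2, against 32.9% of all genes and 66.8% of all genes that fell. Acta1, the skeletal alpha-actin, had 61.3, 59.2 and 57.1 CPM in D2 and 21.6, 21.6 and 23.5 in D2-13B6. Cnn1, calponin of smooth muscle, had 253.0, 253.0 and 239.0 against 118.0, 117.0 and 109.0. Of 40 collagen genes 7 were higher and 22 lower (median -0.76), among them Col8a1 (-1.27) and Col11a1 (-1.13). Clustered protocadherins, adhesion molecules that neurons and mesenchymal cells use, gave 0 higher and 25 lower of 36 (median -0.72), with reads divided in 27 of them. Among 20 chemokines, cytokines and receptors 2 were higher and 12 lower, with Cxcl12 at 27.0, 27.0 and 26.5 CPM in D2 and 9.9, 9.38 and 8.71 in D2-13B6. These lists moved with the fibroblast markers, and the part of such cells in them was not tested.

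**Figure D2:**
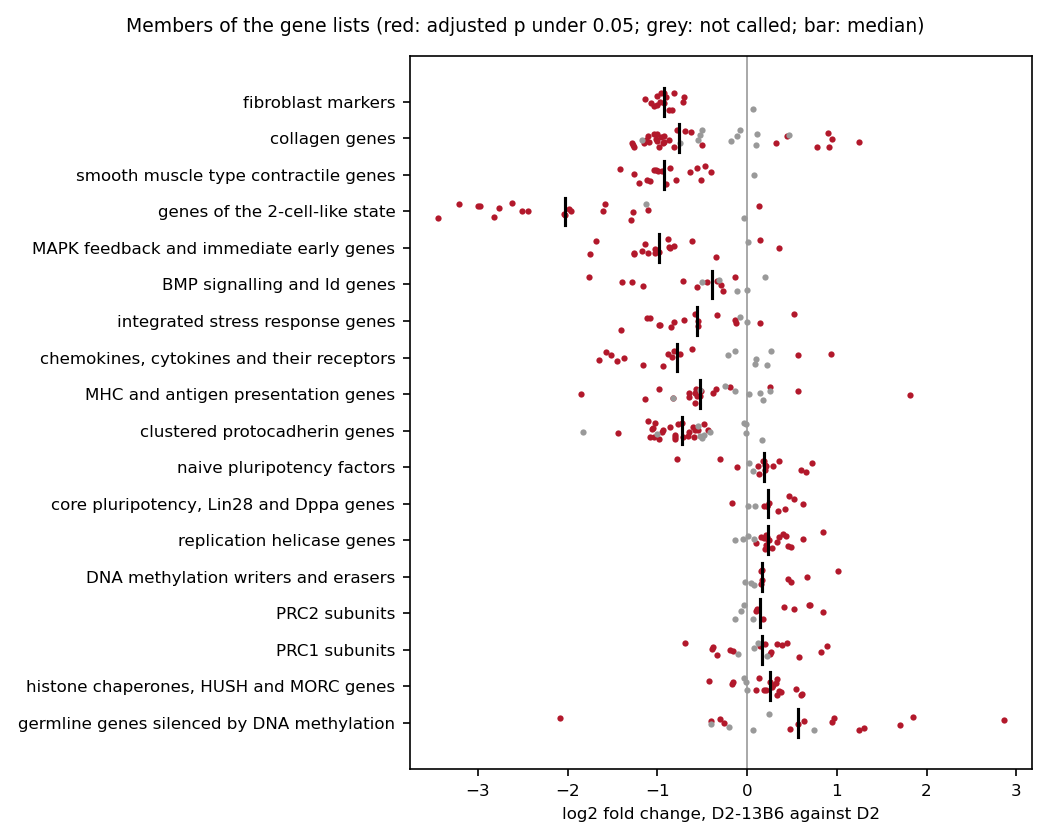
Log2 fold changes in D2-13B6 against D2 (x) of the tested members of 18 gene lists (y), red where called and grey where not, with the median of each list as a bar. The fibroblast, contractile and 2-cell-like medians lie at -0.93, -0.93 and -2.02, and the pluripotency and chromatin lists lie slightly above 0.

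Genes of the 2-cell-like state were lower in D2-13B6. Of 24 listed genes 21 were tested; 1 was higher and 18 were lower, each of the 18 past a log2 fold change of -1, and the median was -2.02. The list summed to 316, 326 and 367 CPM in D2 and to 139, 143 and 143 in D2-13B6, a ratio of 2.37 (D2 over D2-13B6). B6 at 132 to 139 and B6-13D2 at 131 to 135 lay close to D2-13B6, so D2 was the line that stood apart. The fibroblast marker sum was also highest in D2, at 1.98 times D2-13B6, and was 3.06 times higher in B6 than in B6-13D2, where the 2-cell-like sums had a ratio of 1.02; its part in the 2-cell-like difference was not tested.

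Zscan4f, of the Zscan4 cluster that acts in telomere maintenance, had 85.7, 85.5 and 99.8 CPM in D2 and 15.4, 18.0 and 16.4 in D2-13B6 (edgeR log2 fold change -2.44 with SE 0.067, adjusted p 1.93e-14). Zscan4c had 47.4, 47.4 and 59.1 CPM against 7.73, 8.11 and 9.32 (edgeR log2 fold change -2.61 with SE 0.093, adjusted p 2.67e-13). D2 replicate 3 was the highest library for both genes, and no D2-13B6 library came near a D2 library. Below 4 CPM in D2, Duxf3, from the family of the transcription factor that starts this state, fell by 2.99, Zfp352 by 3.44, Tcstv1 by 2.82 and Usp17lc by 2.76. Eif1ad was the member that rose (log2 fold change 0.14), and Zfp809 and Gm4340 were not called. Reads were divided in 18 of the 21 tested genes. In B6 against B6-13D2, 4 of the 21 were higher and 1 lower, against 32.9% and 25.4% of all genes.

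Germline genes that DNA methylation keeps silent in somatic cells gave 10 higher and 4 lower of 19 tested, with a median log2 fold change of 0.56. They summed to 99.8, 104 and 104 CPM in D2, to 178, 179 and 180 in D2-13B6, to 114 to 119 in B6 and to 111 to 116 in B6-13D2. D2-13B6 was thus above every other line, 1.74 times D2. The fibroblast marker sum was 1.98 times higher in D2 than in D2-13B6, and its part in this list was not tested. Dazl (chromosome 17), an RNA-binding protein of germ cells, had 10.4, 11.8 and 9.83 CPM in D2 and 39.3, 39.5 and 37.5 in D2-13B6 (edgeR log2 fold change 1.85 with SE 0.066, adjusted p 2.91e-13). Its levels in B6 and B6-13D2 were 16.7 and 15.7 CPM and were not called different (adjusted p 0.332).

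Hormad1, whose promoter with a pair of CACGTG matches is shown above, had 15.8, 18.1 and 19.8 CPM in D2 and 42.9, 41.6 and 43.4 in D2-13B6 (edgeR log2 fold change 1.25 with SE 0.064, adjusted p 2.2e-11). Brdt had 4.29, 3.87 and 3.6 CPM against 10.3, 9.91 and 8.68 (edgeR log2 fold change 1.30 with SE 0.106, adjusted p 8.6e-09). Sycp1 had 6.12, 6.01 and 5.96 against 11.2, 12.2 and 11.4 (edgeR log2 fold change 0.95 with SE 0.092, adjusted p 8.55e-08). In all 3 genes the groups were separate. On the B6 background Brdt and Sycp1 were also higher with the B6 segment, by 1.79 and 1.55, whereas Hormad1 was lower, by a log2 fold change of -0.65. The members that fell were Tdrd1 (-2.08, below 0.3 CPM), Ddx4 (-0.40), Zp3 (-0.30) and Piwil2 (-0.26).

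DNA methylation enzymes themselves were higher or not called: of 11 tested, 8 were higher and 0 lower, with a median of 0.17. Dnmt3a, a de novo methyltransferase, doubled, from 46.9, 48.9 and 48.9 CPM to 97.7, 98.5 and 96.2 (edgeR log2 fold change 1.02 with SE 0.043, adjusted p 1.97e-12). Zfp57, which keeps imprints methylated, rose from 269.0, 257.0 and 291.0 CPM to 425.0, 438.0 and 432.0, and both genes were also higher in B6 than in B6-13D2, by 0.57 and 0.55. Dnmt3l, the cofactor of the de novo enzymes, rose from 169.0, 174.0 and 176.0 to 231.0, 236.0 and 245.0 and went the other way on the B6 background (-0.69). The summed level of this list was 3732 CPM in D2, 4143 in B6, 4193 in D2-13B6 and 4407 in B6-13D2, the reverse of the order of the fibroblast marker sum, whose part in the list was not tested.

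Silencing genes moved by small amounts. Of 21 histone chaperone, HUSH and MORC genes 15 were higher and 3 lower (median 0.25), led by Morc2a (0.62, on chromosome 11, reads divided), Hells (0.60), a remodeller needed for DNA methylation, and Morc1 (0.55). The 13 H3K9 methyltransferase and HP1 genes gave 3 higher and 4 lower, and the called majority of that list changed sides when scaling left out chromosomes 11, 13, X and Y, to 5 higher and 4 lower. Setdb1, which KRAB zinc finger proteins recruit, had 104.0, 104.0 and 111.0 CPM in D2 and 128.0, 123.0 and 131.0 in D2-13B6 (log2 fold change 0.26), with reads divided. Of 12 PRC2 genes 8 were higher and 0 lower, and Ezh1 (0.85), Suz12 (0.70) and Epop (0.52), the leading ones, lie on chromosome 11. Outside that chromosome 5 PRC2 genes were higher. The fibroblast marker sum was 1.98 times higher in D2, and its part in the silencing and PRC2 lists was not tested. For PRC1, 10 of 20 were higher and 6 lower, with Cbx2 (0.90) and Pcgf2 (0.83), also on chromosome 11, at the top.

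Pluripotency genes were slightly higher in D2-13B6. Of 17 naive factors 12 were higher and 3 lower (median 0.19), and of 12 core genes 9 were higher and 1 lower (median 0.23). Fgf4, a growth factor that stem cells secrete, had 92.0, 96.4 and 91.1 CPM in D2 and 151.0, 154.0 and 157.0 in D2-13B6 (edgeR log2 fold change 0.72 with SE 0.037, adjusted p 2.21e-11). Nr0b1, an orphan receptor of the naive network, had 61.4, 62.3 and 57.1 against 96.7, 91.4 and 97.2. Nanog rose by 0.36 with reads divided, while Klf4 (0.02) and Sox2 (0.09) were not called. The naive factors that fell were Dppa3 (-0.79), Gbx2 (-0.30) and Nr5a2 (-0.12). Replication helicase genes, which license origins before S phase, gave 18 higher and 0 lower of 22 (median 0.23), with Cdc6 on chromosome 11 highest (0.85) and Gins2 next (0.62). All 3 lists were higher in D2-13B6 while the fibroblast marker sum was 1.98 times higher in D2, and its part in them was not tested.

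Signalling readouts were mostly lower. Of 19 MAPK feedback and immediate early genes 2 were higher and 16 lower (median -0.98), 9 of them past a log2 fold change of -1. Fos, an immediate early transcription factor, had 98.9, 96.5 and 92.8 CPM in D2 and 27.5, 28.1 and 29.9 in D2-13B6 (edgeR log2 fold change -1.75 with SE 0.045, adjusted p 1.2e-14). Spry4, a feedback inhibitor of receptor signalling, had 24.8, 25.5 and 24.7 against 8.58, 7.64 and 7.08. Etv5 (0.14) and Spred2 (0.35) were the members that rose. On the B6 background 15 of the 16 genes that fell were higher in B6 than in B6-13D2, against 66.8% of all 5092 genes that fell.

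In the BMP list 0 of 16 were higher and 11 lower (median -0.39). Id1, an inhibitor of basic helix-loop-helix factors and a BMP target, had 44.9, 43.6 and 38.0 CPM in D2 and 12.1, 12.9 and 12.3 in D2-13B6 (edgeR log2 fold change -1.76 with SE 0.062, adjusted p 2.43e-13). The ligand Bmp4 (-1.28) and the secreted antagonist Grem1 (-1.40) fell too. Of 18 integrated stress response genes 2 were higher and 14 lower (median -0.56), with Nupr1 at 48.9, 49.2 and 52.8 CPM against 19.1, 18.6 and 19.1, while Atf4, the central factor, moved by -0.13. Wnt targets gave 5 higher and 9 lower of 18 (median -0.20), and outside chromosome 11, which holds 5 of them, 1 higher and 9 lower (median -0.75), while LIF and STAT3 genes gave 2 higher and 8 lower of 16. Nodal and Activin genes differed from these lists in direction, with 7 higher and 3 lower of 13. Nodal itself had 55.9, 53.3 and 50.6 CPM in D2 and 86.9, 83.8 and 84.1 in D2-13B6 (edgeR log2 fold change 0.67 with SE 0.047, adjusted p 1.34e-09), and its co-receptor Tdgf1 rose by 0.62 with reads divided. The fibroblast marker sum was higher in D2, and its part in these signalling lists was not tested.

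**Figure D3:**
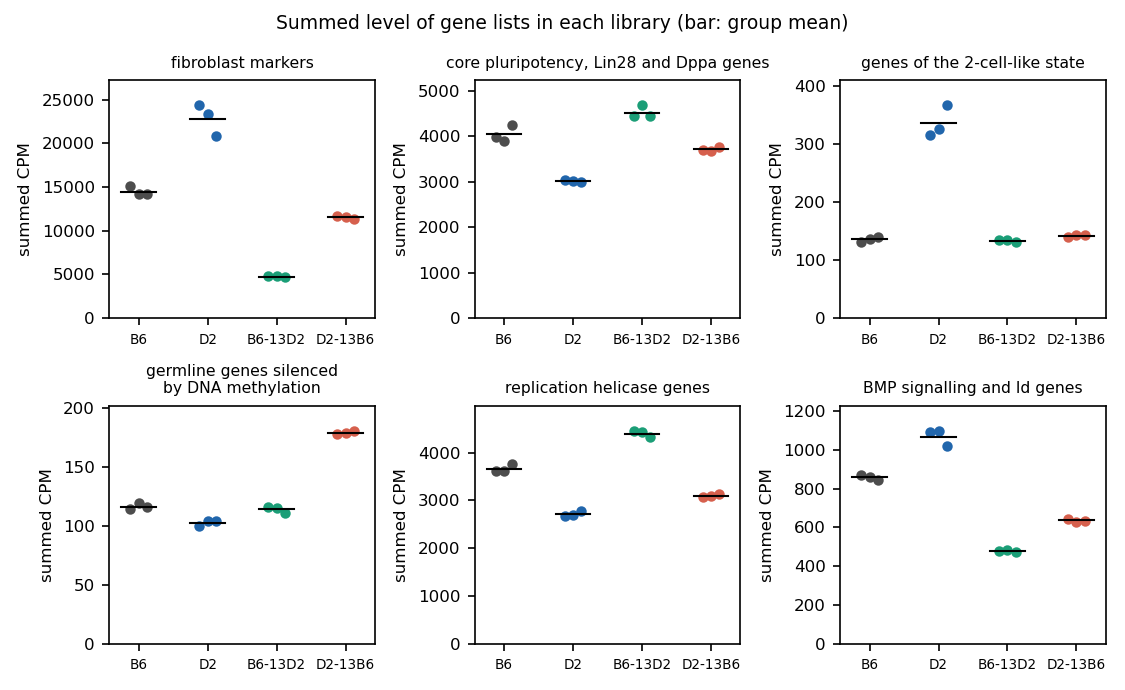
Summed CPM (y, from 0) of 6 gene lists in each of the 12 libraries (points) by line (x), with bars at group means. D2 is highest for fibroblast, 2-cell-like and BMP genes, and D2-13B6 is highest for germline genes.

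Immune genes were mixed. Of 26 MHC and antigen presentation genes 3 were higher and 15 lower (median -0.52). B2m, the light chain of class I molecules, had 601.0, 597.0 and 588.0 CPM in D2 and 269.0, 270.0 and 270.0 in D2-13B6 (edgeR log2 fold change -1.14 with SE 0.038, adjusted p 1.23e-13). H2-Q10 (1.81), H2-Q4 (0.25) and Cd74 (0.57) rose. Interferon-stimulated genes gave 8 higher and 18 lower of 37, with Irf7 falling by 1.18 and Oas1a, with divided reads, rising by 1.03. Of the 15 MHC list genes that fell, 13 were higher in B6 than in B6-13D2, against 66.8% of all genes that fell. The sum of the 16 fibroblast markers was 1.98 times higher in D2, and its part in this list was not tested.

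Metabolic lists moved little. Of 23 glycolysis genes 11 were higher and 2 lower (median 0.09), with the glucose transporter Slc2a3 (0.77, reads divided) and Pfkp (0.69, reads divided) highest. Cholesterol synthesis genes gave 3 higher and 10 lower of 23, and serine and one-carbon enzymes 8 higher and 5 lower of 18, with Gldc of the glycine cleavage system at 80.5, 80.2 and 80.8 CPM against 138.0, 137.0 and 138.0. In lysine breakdown, where Aass fell most, Gcdh rose by 0.34 and Aldh7a1 was not called (-0.07). Ribosomal protein genes gave 10 higher and 8 lower of 83, a majority that turned with a mean CPM of at least 1 (10 and 17), whole counts only (4 and 6), only the libraries compared (11 and 15) and without D2 replicate 3 (10 and 16). Outside chromosome 11, which holds 7 of them, 4 were higher and 8 lower. Mitochondrially encoded genes gave 1 higher and 7 lower of 13, and without D2 replicate 3 these were 2 and 1, so that count rested on that library.

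Imprinted genes were split, 16 higher and 14 lower of 40, and the majority changed sides with a mean CPM of at least 1 (15 and 16) and with whole counts only (9 and 13). H19, the maternally expressed non-coding RNA, had 152.0, 142.0 and 150.0 CPM in D2 and 279.0, 283.0 and 264.0 in D2-13B6 (edgeR log2 fold change 0.90 with SE 0.038, adjusted p 1.79e-12). Ascl2 rose by 1.35 and H13 fell by 0.92 with divided reads.

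Chromosome 11, which the labels do not name as a segment, was higher across its length. Of 1386 tested genes there, 817 were higher (58.9%, against 27.6% of all genes) and 187 lower. The median log2 fold change lay 0.42 above the median of the remaining autosomes, a ratio of 1.34. Per library, on log2(CPM + 0.5) relative to the D2 mean, that shift was 0.369, 0.38 and 0.372 in D2-13B6 and 0.003, 0.003 and -0.003 in D2 (exact permutation test over libraries, two-sided p 0.1, the smallest that 3 against 3 allows). All 20 windows of 5 Mb with at least 20 genes had a median above 0, from 0.05 to 0.47. Against B6 the shift in D2-13B6 was 0.379, and in B6 against B6-13D2 it was -0.033, so D2-13B6 was the line that differed on chromosome 11. Copy number was not measured.

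Named chromosome 11 genes were Hap1, which binds huntingtin, at 44.3, 44.8 and 44.2 CPM in D2 and 119.0, 120.0 and 121.0 in D2-13B6 (edgeR log2 fold change 1.44 with SE 0.036, adjusted p 1.2e-14). Calcoco2, an autophagy receptor, had 57.8, 63.9 and 64.3 against 142.0, 146.0 and 147.0. Rnf213, a large ubiquitin ligase, rose by 0.94 and Smtnl2 by 0.92.

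Chromosome 13 as a whole was lower in D2-13B6. Of 638 tested genes 98 were higher (15.4%) and 264 lower (41.4%, against 29.7% of all genes), a shift of -0.155 from the other autosomes, with libraries at -0.13, -0.143 and -0.134 (exact permutation test, two-sided p 0.1). Against B6, which carries the same segment allele by label, the shift in D2-13B6 was -0.141. In B6 against B6-13D2 it was 0.071, so the shift did not follow the segment allele across the lines. Among genes there with whole counts, 5 of the 6 with the smallest adjusted p fell. Edil3, an integrin ligand of the matrix, had 114.0, 112.0 and 110.0 CPM in D2 and 45.7, 46.6 and 45.8 in D2-13B6 (edgeR log2 fold change -1.28 with SE 0.04, adjusted p 7.84e-14). The chemokine Cxcl14 fell by 1.81, Nedd9, an adhesion scaffold, by 1.47, Tgfbi, a matrix protein, by 1.01, and the transcription factor Klf6 by 0.83. These 5 genes were higher in B6 than in B6-13D2, by 1.06 for Klf6 to 2.24 for Cxcl14, as were 66.8% of all genes that fell. The fibroblast marker sum was higher in D2 and in B6 too, and its part in them was not tested.

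Nlrp4f (chromosome 13, 65177111 to 65205977), the sixth, behaved differently. It had 6.5, 7.7 and 8.6 CPM in D2 and 45.3, 42.9 and 49.5 in D2-13B6 (edgeR log2 fold change 2.59 with SE 0.075, adjusted p 3.67e-14), and 27.3, 27.2 and 28.3 in B6 against 16.1, 16.5 and 16.2 in B6-13D2 (0.76, SE 0.071, adjusted p 4.92e-08). The B6 segment went with the higher level on both backgrounds, with the wider gap on the D2 background (difference 1.83).

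The window from 65 to 70 Mb, which holds Nlrp4f and part of the zinc finger cluster, had a different pattern from most of the chromosome. Of its 55 tested genes 20 were higher and 13 lower, and the median log2 fold change was 0.29. Whether this window lies inside the segment was not established here, as its bounds in Mb were not used. Of 16 genes there called on both backgrounds, 11 had the same sign, against 18.5% of all 6786 genes called on both. Of 15 windows with at least 20 genes, 13 had medians below 0.

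Among zinc finger genes between 60 and 70 Mb, 15 of 30 tested were higher and 2 lower (median 0.33), with reads divided in 21, compared with 175 higher and 82 lower of 433 elsewhere (median 0.13). In B6 against B6-13D2 the same 30 genes gave 5 higher and 8 lower (median 0.01), and 5 were higher on both backgrounds. Past a log2 fold change of 1 the genes elsewhere were 6 higher and 12 lower. The following genes of this stretch were chosen after their values were seen, as called with the same sign on both backgrounds and with whole counts, a rule that Nlrp4f meets too. Zfp459 rose by 1.16 here and was higher in B6 than in B6-13D2 by 1.37. Zfp493 gave 0.84 and 0.36, Fancc, a DNA repair gene of the Fanconi pathway, 0.83 and 0.69, and Fbp2, a gluconeogenic enzyme, 1.26 and 1.17. Fbp1, its neighbour of the same enzyme family, gave 1.37 and 2.53 at under 1 CPM in D2 and D2-13B6. Slc35d2, a nucleotide sugar transporter, was low with the B6 segment on both, by -0.70 and -1.38, as was Gm10772, at under 1 CPM in D2, by -1.84 and -1.94.

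Genes known to differ between the strains were set beside the labels. Nnt (chromosome 13, 119335448 to 119408997), a mitochondrial transhydrogenase with a known deletion in the C57BL/6J strain, had 22.9, 24.7 and 26.0 CPM in D2 and 21.6, 21.6 and 21.3 in D2-13B6 (log2 fold change -0.19, edgeR adjusted p 0.0076). It had 44.7, 44.3 and 43.3 CPM in B6 and 53.4, 47.9 and 50.5 in B6-13D2, so the strain with the known deletion had the higher count, and Nnt did not serve to check the labels. H2-Ea-ps had 0 counts in all 12 libraries and could not be used either. Glo1 and Alad, genes known to differ in copy number between inbred strains, had mean levels of 189 and 52.4 CPM in D2-13B6, 192 and 44.0 in D2, 119 and 23.4 in B6, and 146 and 30.2 in B6-13D2. In D2-13B6 both were closer to D2, the labelled background, and reads of Glo1 were divided.

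The comparison of B6 with B6-13D2 asks about the same segment alleles on the B6 background and shares no library with the comparison above. Its calls were 10003 of 17148 genes (58.3%), of which B6 was higher for 5649 (32.9%) and lower for 4354 (25.4%), a majority that turned with RLE size factors (48.0% higher, against 56.5%), and 2478 (14.5%) reached a log2 fold change of at least 1. Genes that followed the B6 segment on both backgrounds were 739 higher (4.31%) and 518 lower (3.02%). More genes went opposite ways: 3403 (19.8%) were lower in D2-13B6 than D2 and higher in B6 than B6-13D2, and 2126 (12.4%) the reverse. The difference between the effects was called for 11059 genes (64.5%), 4392 (25.6%) of them past 1. It equals both congenic lines minus both parental lines, so it cannot be told apart from anything the congenic libraries share. D2-13B6 against B6, which carry the same segment allele by label, gave 10120 called genes (59.0%), 1994 (11.6%) past 1.

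**Figure D4:**
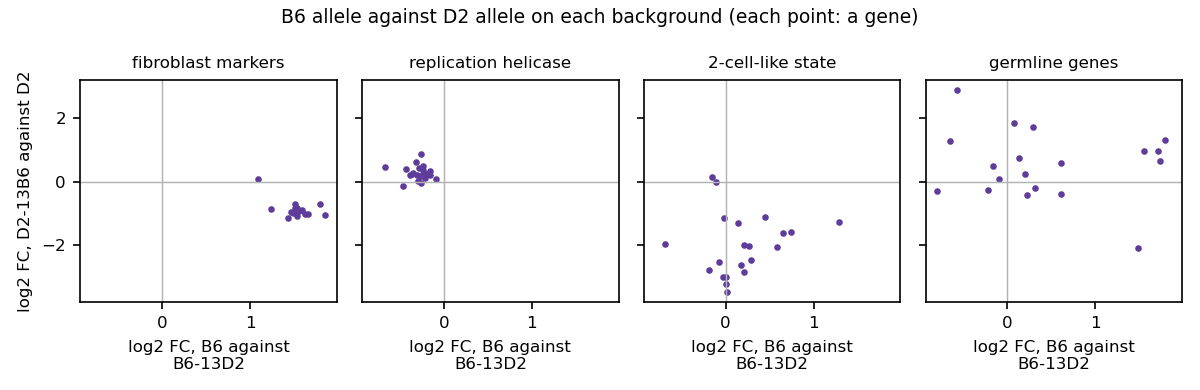
Log2 fold change of the B6 against the D2 segment on the D2 background (y) and on the B6 background (x) for tested genes (points) of 4 lists. Fibroblast markers lie at lower right and helicase genes at upper left, while 2-cell-like genes spread down the vertical axis.

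**Figure D5:**
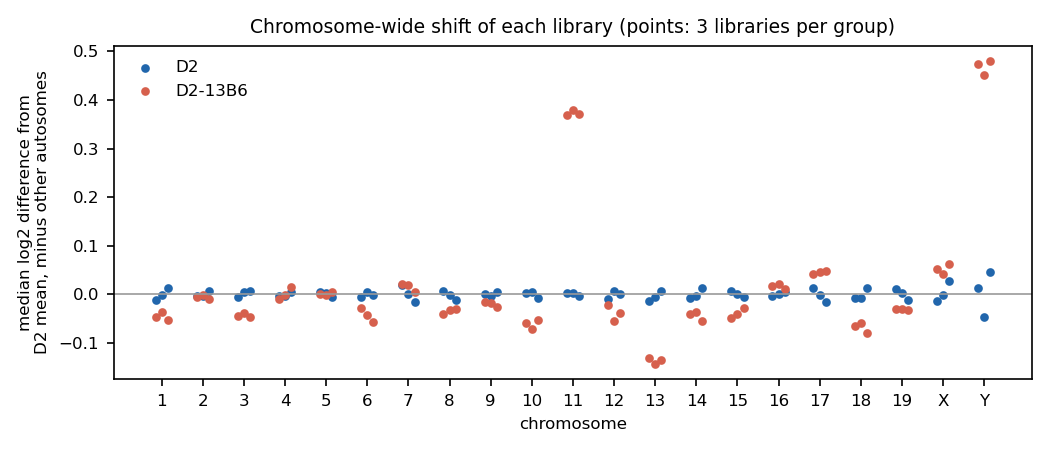
Median log2 difference from the D2 mean for each chromosome, minus that of the other autosomes (y), in each D2 and D2-13B6 library (points) by chromosome (x). D2-13B6 libraries reach 0.369 to 0.38 on chromosome 11 and -0.143 to -0.13 on chromosome 13; the Y chromosome rests on 14 genes.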

How the data were processed

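RNA of 12 libraries was sequenced as 150 bp reads, per the labels' protocols. The authors deposited expected counts per Ensembl gene, from EMASE per the file's title, which divides reads among loci and alleles; 88.1% of values were whole to within 1e-06. The submitters' processing notes name mm10, Bowtie 1.0.0 and edgeR 3.34.1, and whether strand was used is not given in the sources used here, so overlapping genes are uncertain. Symbols and positions are from GENCODE M21 (GRCm38), which lacked 884 of 43346 IDs (0.361% of reads). After rounding, edgeR 4.0.16 (R 4.3.3) was used: filterByExpr (minimum count 10, about 0.368 CPM), TMM, a quasi-likelihood fit of 4 group means over 12 libraries, Benjamini-Hochberg adjustment. SE was derived from each log2 fold change and its F statistic. CPM use TMM-scaled totals. Counting error depends on depth and reads are not independent molecules. The script was tested on simulated counts.

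Named genes were the 10 most raised and 10 most lowered among called protein-coding genes with mean log2 CPM of at least 2, no overlap and whole counts, 6 of chromosome 13 and 4 of chromosome 11 by adjusted p, and up to 4 called members of each list by absolute log2 fold change. The libraries were taken by their labels, and this comparison and the gene lists were chosen with earlier results of these data known. Alternatives were DESeq2 1.42.0, RLE, TMM without chromosomes 11, 13, X and Y, other filters, whole counts only, a fold threshold, only the libraries compared, a replicate block and leaving out each library of D2 and D2-13B6. The sequences are RefSeq promoters.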

Additional observations from a re-analysis of the deposited data

Results flagged for a closer look

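The 2 comparisons, D2-13B6 against D2 and B6 against B6-13D2, differed for 29 of the 32 genes named across the comparison, by edgeR's test of the difference with an adjusted p under 0.05 (64.5% of all genes tested were called). Most of these genes were chosen by their values in D2-13B6 against D2, 1 arm of that difference, so nothing is read from this count. The difference cannot be told apart from anything the congenic libraries share. Values are log2 fold changes of D2-13B6 against D2 minus those of B6 against B6-13D2. Among genes highest in D2-13B6 the differences were Serpina3m (3.84), A2m (1.8), Usp26 (2.23), Ace (3.86), Smc1b (2.93), Nlrp4f (1.83), Liph (3.75), Zscan5b (2.91) and Mypn (2.34). For genes lowest in D2-13B6 they were Stab2 (-3.68), Nr4a3 (-4.96), B020031M17Rik (-2.31), Tmem92 (-1.84), C1qtnf3 (-3.79), Sox9 (-3.88) and Itga11 (-3.33). Aass (1.16) and H2-Eb1 (1.19) were lower with the B6 segment on both backgrounds, by less on the D2 background. On chromosome 13 the differences were Cxcl14 (-4.05), Edil3 (-3.26), Tgfbi (-2.5), Nedd9 (-3.55) and Klf6 (-1.9), and on chromosome 11 Hap1 (1.97), Calcoco2 (0.93), Rnf213 (0.54) and Smtnl2 (1.6). The strain check genes gave Alad (0.62) and Glo1 (0.27). Obox6, Cd59a and the strain check gene Nnt were not called different.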

How the results depend on the processing

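Only the 6 libraries of D2 and D2-13B6 were left out in turn, so the ranges for the other comparisons do not cover their B6 and B6-13D2 libraries, and those for B6 against B6-13D2 show only the shared fit. This gave 8795 to 9746 called genes in D2-13B6 against D2 (47.2% to 49.6% higher), 9870 to 10323 in B6 against B6-13D2 (54.1% to 56.5%), 10600 to 11113 for the difference between backgrounds (47.4% to 50.1%), and 9231 to 10466 in D2-13B6 against B6 (41.1% to 43.5%), with chromosome 11 shifts of 0.413 to 0.423 and chromosome 13 shifts of -0.158 to -0.147. Of the genes called in D2-13B6 against D2, the higher part, 48.2%, was 52.9% with TMM without chromosomes 11, 13, X and Y, 50.8% with no filter and 42.2% both for genes with a mean CPM of 1 or more and for whole counts, so the majority turned with the scaling and the filter. In B6 against B6-13D2 the share, 56.5%, was 48.0% with RLE and 48.1% with DESeq2, and the majority turned; in D2-13B6 against B6 it went from 41.5% to 49.3% with RLE and to 50.8% with only the libraries compared. For the difference, 48.2% became 52.9% with RLE and 52.8% with DESeq2. A log2 fold change of at least 1 left 1537, 2478 (76.1% higher in B6), 4392 (35.9% higher) and 1994 (59.6% higher) genes in the same order. The chromosome 11 shift was 0.409 when genes needed a mean CPM of 1, 0.41 with no filter and 0.431 with whole counts only, and the chromosome 13 shift was -0.139 with no filter; the cause was not tested. DESeq2 called 9144 genes, 9106 of them also called by edgeR, and genes with whole counts gave 7477. A replicate block left 9664 genes called. Libraries of D2 and D2-13B6 with the same number deviated with r of -0.0111 to 0.0139, and 2 of 6 correlated best with their own number, so the numbers showed no pairing. Among 194 named genes, mt-Nd6, Eomes, Crym, Cox6b2 and mt-Atp6 lost their call under at least 1 alternative, and none changed direction. The fold threshold was not applied to named genes, and whole counts only covered 148 of them. Depth limits genes of low level, and those that did not pass the filter were not tested. That filter, at about 0.368 CPM, used all 12 libraries, so some genes below it in both D2 and D2-13B6 were tested.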

Other observations

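Genes of mesenchymal and epithelial identity were split, with 10 higher and 9 lower of 21. Of the 4 that the rule names, 2 genes of epithelia were higher in D2-13B6 and 2 of mesenchyme were lower. Ocln (chromosome 13), a tight junction protein, had 2.25, 3.81 and 3.0 CPM in D2 and 9.1, 8.25 and 8.88 in D2-13B6 (edgeR log2 fold change 1.5 with SE 0.143, adjusted p 7.1e-08). Grhl2, a transcription factor of epithelia, had 4.25, 4.98 and 5.28 CPM against 9.76, 11 and 11.1 (1.13, SE 0.11, edgeR adjusted p 8.81e-08). Vim, the filament protein vimentin, fell by 0.97 and the transcription factor Twist1 by 0.92. All 9 genes of this list that fell were higher in B6 than in B6-13D2, against 66.8% of all genes that fell. Fibroblast markers summed to 1.98 times more in D2 than in D2-13B6, and their part in this list and the next was not tested. Among 17 primitive endoderm markers, 6 higher and 8 lower (2 and 1 past a log2 fold change of 1), the keratins Krt8 and Krt18 rose by 0.89 and 0.75, and Lamb1 and Col4a2, chains of basement membrane proteins, fell by 0.90 and 0.87. In the trophoblast list, with 6 higher and 3 lower of 12, Tfap2c fell from 31.4, 31.0 and 32.5 CPM to 12.1, 11.6 and 11.8 (edgeR log2 fold change -1.42 with SE 0.059, adjusted p 1.55e-12), while Ascl2 (1.35), Plet1 (1.03) and Tead4 (0.59) rose. Of the 14 tested genes of the Y chromosome 10 were higher and 0 lower, with reads divided in 11.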
